A study of Drosophila melanogaster and Drosophila simulans and Drosophila yakuba with 12 samples.

Results

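The mir-92 family of Drosophila is described here as 6 hairpins and their 12 mature arms: mir-92a and mir-92b, called the mir-92 pair, and mir-310, mir-311, mir-312 and mir-313, called the mir-310 cluster. Members were taken by name, and they make up 6 of the 176 D. melanogaster hairpins in the files. Small RNA was sequenced from whole animals in 12 libraries of 10 RNA samples. White prepupae, collected 0 to 1 h after puparium formation, were set against larvae 18 h before it, which were staged by gut colour.

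Male prepupae of D. simulans (strain 14021-0251.167) had 2 libraries prepared from 1 RNA, and male larvae had 1 library. D. yakuba (strain 14021-0261.00) had the same layout, with 2 libraries of 1 male prepupal RNA and 1 library of male larvae. D. melanogaster (strain Oregon-R) had 2 libraries from 2 RNA samples of male prepupae, 2 from 2 RNA samples of male larvae, 1 of female prepupae and 1 of female larvae. The labels name no transgene, mutation or treatment in any group. D. simulans and D. yakuba were sampled as males alone.

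MicroRNAs are cut from a hairpin that yields a 5p and a 3p arm, and the loaded arm finds its target messenger RNAs mainly through its seed, bases 2 to 8. The mir-92 pair belongs to an old animal family, which also holds the vertebrate miR-25 and miR-92 genes, and in flies it is known for roles in neural stem cells and in leg hair patterning. The mir-310 cluster arose later, by duplication within the Drosophila lineage, changes fast in sequence, and is known from the larval nerve-muscle junction and from the ovary.

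The 2 sequences that follow are the mature 3p arms of the pair, with the seed in capitals, as the authors' alignment files list them for D. melanogaster.

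miR-92a-3p: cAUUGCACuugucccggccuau

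miR-92b-3p: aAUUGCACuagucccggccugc

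The seed was the same in 17 of 17 mature 3p sequences of the family listed over the 3 species, and the 6 members were the only D. melanogaster hairpins of 176 that held it in their mature 3p arm. The pair differed from each other at 4 of 22 bases, counted from the 5′ end and written with the miR-92a-3p base first: C1A, U10A, A21G and U22C. A pair member and a cluster member differed at 5 to 7 bases, and 2 cluster members at 5 to 8. All of these differences lay outside the seed.

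Across species the mature 3p arms of mir-92a, mir-92b and mir-311 were identical in D. simulans, D. yakuba and D. melanogaster. miR-310-3p of D. yakuba differed from D. melanogaster at base 17. miR-312-3p differed at bases 20 and 21 in D. simulans and at base 20 in D. yakuba, against D. melanogaster. miR-313-3p of D. simulans differed at bases 20 and 21. For D. yakuba no mir-313 hairpin was listed, and its reads were sought on the D. melanogaster hairpin, with 0 found. That hairpin also held 0 of the 3 miR-313-5p reads of D. simulans, so the D. yakuba count of 0 does not show absence.

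The mir-92a hairpin is shown because it sets side by side both arms of the pair member with the larger fitted stage difference, with the 3p arm in capitals. The 5p line is the most frequent 5p read of the 12 libraries.

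mir-92a: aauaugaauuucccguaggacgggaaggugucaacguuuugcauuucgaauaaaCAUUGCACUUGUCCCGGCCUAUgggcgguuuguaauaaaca

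miR-92a-5p: aggacgggaaggugucaacguu

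In the BDGP6 assembly with Ensembl 115 annotation, mir-92a lies at 3R:25646506-25646600 on the plus strand. It is inside the gene jigr1 (3R:25637843-25651874, plus strand) and overlaps no exon, so it is intronic. mir-92b lies at 3R:25651398-25651497 on the plus strand, where it overlaps an exon and a 3′ UTR of jigr1 and an exon of lncRNA:CR45917. The pair spans 4992 bases. The mir-310 cluster spans 509 bases of the minus strand of chromosome arm 2R, with mir-310 at 20583752 to 20583840, mir-311 at 20583877 to 20583960, mir-312 at 20584056 to 20584121 and mir-313 at 20584190 to 20584260. No annotated gene surrounds the cluster.

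Libraries were shallow, at 1423 to 48209 miRNA reads, and a single read stood for 20.7 to 703 RPM, the usual depth-scaled read unit. The family held 1251 of 172112 reads, which is 0.727%. The libraries were made in 3 pools, named SDY1, SDY3 and SDY4 in the titles, with a 4-base index at the 3′ end of the 5′ adaptor. Both male prepupal libraries of D. melanogaster carried TGAC and both male larval libraries ACTG, so in D. melanogaster males stage and index cannot be told apart. The 2 libraries of the D. simulans prepupal RNA stood apart in the pair, as given below, and the fits and stage ratios that rest on them are given with each library alone where that changed them.

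Family reads came mainly from the pair. The pair held 1055 reads, 84.3% of the family, and the cluster 196 reads, 15.7%. The pair outnumbered the cluster in 11 of 12 libraries. miR-92b-3p led with 808 reads, followed by miR-92a-3p with 237, miR-311-3p with 76, miR-312-3p with 59 and miR-312-5p with 48. miR-310-3p had 8 reads, miR-92a-5p 8, miR-313-5p 4, miR-92b-5p 2 and miR-310-5p 1. No read was found for miR-311-5p or miR-313-3p. The annotated mature 3p sequences all have 22 bases. The reads themselves differed in length between arms and libraries, as described with the read ends, and levels are compared between arms as read counts.

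miR-92b-3p had reads in every library, while the other arms were patchy. In D. simulans miR-92b-3p had 32 reads in library 1 and 63 in library 2 of the male prepupae, against 3 in male larvae. In D. yakuba it had 246 and 21 reads in the male prepupal libraries, against 27 in male larvae. In D. melanogaster it had 51 and 67 reads in male prepupae, against 137 and 71 in male larvae, and 78 in female prepupae, against 12 in female larvae. As a share of miRNA reads this ran between 0.063% in D. simulans larvae and 1.48% in library 2 of the D. yakuba prepupae, with a median of 0.591%.

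Over RNA samples, D. yakuba male prepupae had the highest miR-92b-3p share at 1.15% (exact 95% interval 1.02 to 1.30%). The next was male prepupal sample 2 of D. melanogaster at 0.742% (0.576 to 0.942%). D. yakuba larvae at 0.724% and male larval sample 2 of D. melanogaster at 0.702% followed closely. D. simulans prepupae stood at 0.332% with both libraries summed, but at 0.136% in library 1 and 1.24% in library 2, so that their place runs between the lower end and the top of the order with the library used. The lowest others were D. melanogaster female larvae at 0.254%, female prepupae at 0.162% and D. simulans larvae at 0.063%. Of the 9 steps between neighbours in the order of summed shares, 1 had intervals that did not overlap, the step from D. yakuba prepupae to the sample below it. Reads carry no molecular identifiers, so intervals here cover counting error only. In these whole-animal samples, fewer cells of a type and less RNA per cell cannot be told apart.

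By read count miR-92a-3p was the rarer 3p arm of the pair in 12 of 12 libraries. The exact interval of its part of the pair's 3p reads reached above 50% in prepupal library 1 and the larvae of D. simulans. It also did so in D. yakuba prepupal library 2 and D. melanogaster female larvae. In D. simulans miR-92a-3p had 26 and 6 reads in the male prepupal libraries, against 0 in male larvae, where a count of 0 allows a share of up to 0.063%. In D. yakuba it had 58 and 13 reads in the male prepupal libraries, against 8 in male larvae. In D. melanogaster it had 28 and 33 reads in male prepupae, against 16 and 7 in male larvae, and 38 in female prepupae, against 4 in female larvae.

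By share, both male prepupal samples of D. melanogaster lay above both male larval samples, with no overlap. The 2 prepupal values were 0.263% (0.175 to 0.381%) and 0.366% (0.252 to 0.513%). The larval values were 0.055% (0.031 to 0.089%) and 0.069% (0.028 to 0.143%). In females the shares overlapped in their intervals, at 0.079% in prepupae (0.056 to 0.108%) and 0.085% in larvae (0.023 to 0.217%). Over the 10 RNA samples miR-92a-3p was highest in male prepupal sample 2 of D. melanogaster, then in D. yakuba prepupae at 0.306% and in male prepupal sample 1 of D. melanogaster. None of the 9 steps between neighbours in that order had intervals clear of each other.

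**Figure D1:**
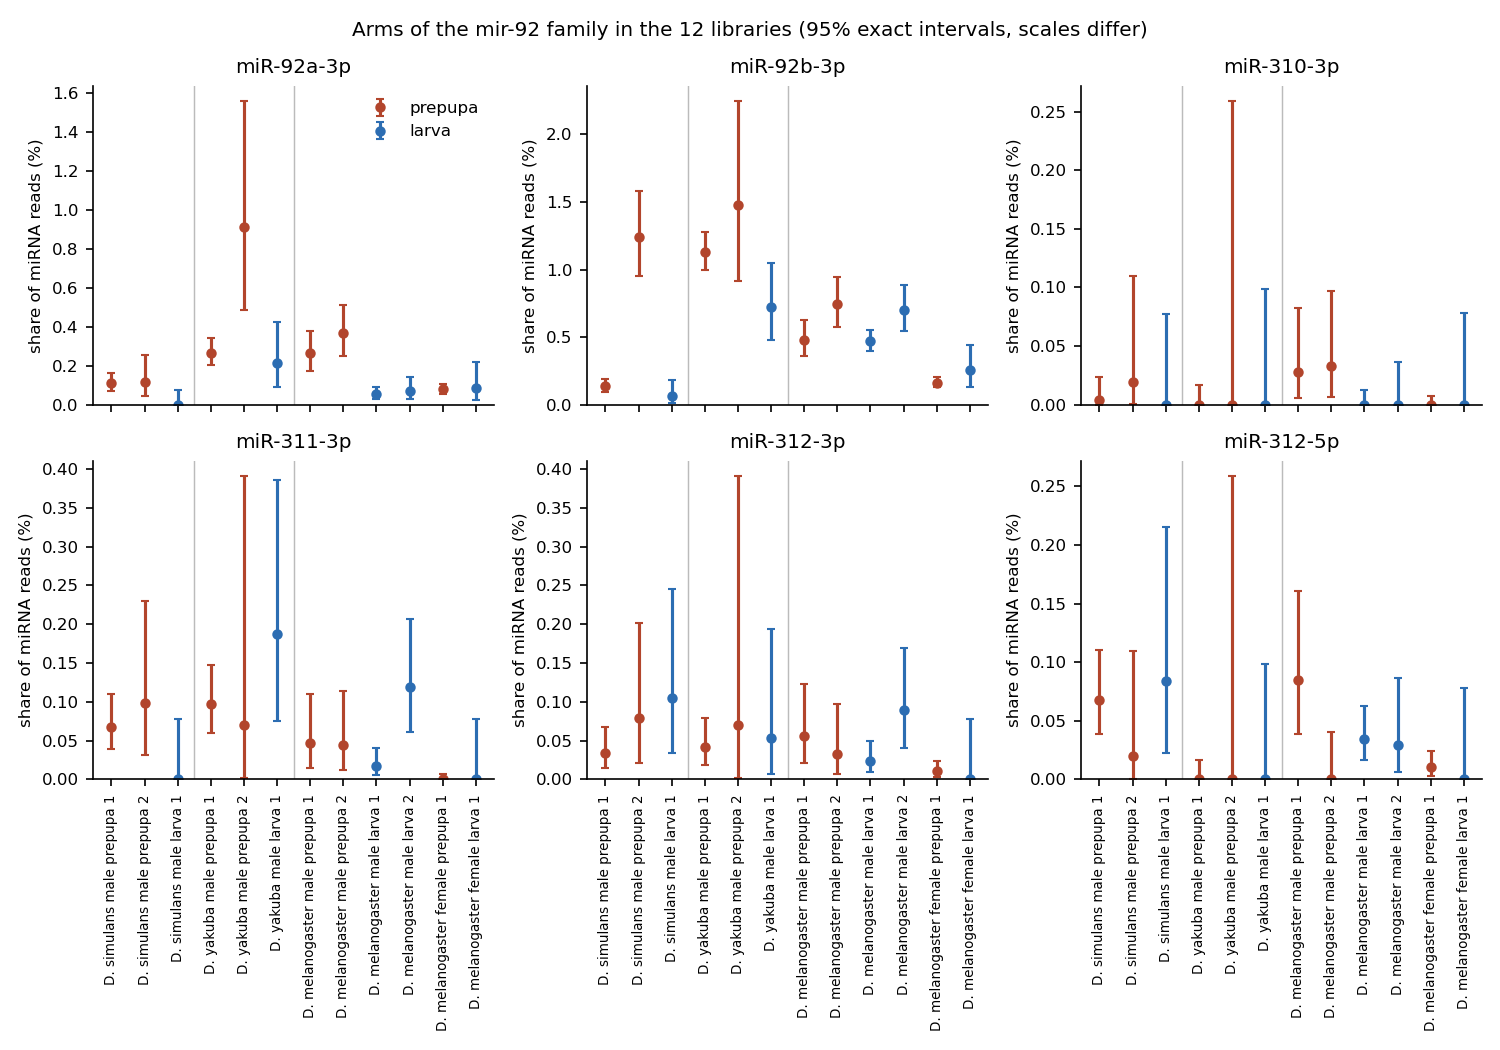
Share of miRNA reads (y axis, %, scale set per panel and starting at 0) of 6 family arms in the 12 libraries (x axis), prepupae in red and larvae in blue, with exact 95% intervals as bars. miR-92a-3p reached 0.263% and 0.366% in the male prepupae of D. melanogaster, against 0.055% and 0.069% in the male larvae, while the cluster arms stayed at 0.188% or less in all libraries.

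The stage comparison asks which miRNAs change at the onset of metamorphosis. In D. melanogaster males the fitted difference of miR-92a-3p, prepupa minus larva, was 2.67 ± 1.39 on the log2 scale (SE, 2 samples a stage, edgeR quasi-likelihood test, adjusted p = 0.245). The fit held all D. melanogaster libraries with a mean per group, so the female libraries entered the filter, the scaling and the estimate of spread. The same test gave miR-92b-3p 0.43 ± 1.33 (adjusted p = 0.941) and miR-311-3p -0.16 ± 2.10 (adjusted p = 0.941). Of the family's 12 arms, 3 passed the filter on low counts and 0 passed the test, against 8.57% of the 70 arms tested. At an unadjusted p under 0.05 edgeR had 14 arms (20%), 0 of them of the family, and DESeq2 also called 0 of the 3. The median difference over all 70 arms was 0.12.

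The call on miR-92a-3p turned on the pool. Replicate 1 of each stage came from pool SDY1 and replicate 2 from SDY3, per the titles. With that number as a block in the 4 male libraries, the difference was 2.52 ± 0.89 (SE, edgeR, adjusted p = 0.0186), in a fit that called 40% of the 50 arms tested. The blocked fit has 1 residual degree of freedom, and stage and index still go together in it. In the same 4 libraries without the block it was 2.66 ± 1.29 (edgeR, adjusted p = 0.163). In both pools the prepupal sample had the higher share. The share of 5 nervous system miRNAs, among them mir-124, was 0.432 to 0.480% in these male prepupae, against 0.148 to 0.305% in the male larvae, with 3 or 4 of the 5 read in each. The muscle miRNAs mir-1 and mir-133 together were at 0.978 to 7.93% in the prepupae, against 5.66 to 13.2% in the larvae. The 20 testis-rich miRNAs were at 0.144 to 0.310% in the prepupae and 0.123 to 0.247% in the larvae, and the 3 ovary-rich ones at 0 in both. The part of these cell types in the result was not tested.

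Over all 10 RNA samples, miR-92a-3p averaged 10.95 ± 0.94 in prepupae and 9.06 ± 2.04 in larvae (log2 of RPM plus 50, SD, n = 5 each). The difference of 1.89 had p = 0.0833 in an exact two-sided permutation test within species and sex, for which 0.0417 was the smallest p possible. In 3 of the 4 sets of species and sex all prepupae lay above all larvae. D. melanogaster females were the exception. The D. simulans larvae had 0 reads, so the 50 RPM added set their value, while 1 read there stood for 210 RPM. They lay at -4.36 against the mean of the 10 samples, and the next lowest sample at -0.78. The larval mean, the larval SD and the difference rest in part on that 0.

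Across the males of 3 species, with a term for species, miR-92a-3p differed by 1.98 ± 0.73 on the log2 scale, prepupa minus larva (SE, 4 RNA samples a stage, edgeR, unadjusted p = 0.0188, adjusted p = 0.164). miR-92b-3p differed by 0.59 ± 0.64 (edgeR, adjusted p = 0.696). The 2 arms were those of the family that passed the filter, and 0 passed the test, against 2.86% of 35 arms. At an unadjusted p under 0.05 it was 1 of the 2, against 20% of the arms. The median over the 35 arms was -0.30. With DESeq2 on the same counts the miR-92a-3p difference was 2.08 ± 0.51 (adjusted p = 0.000725), in a fit that called 5.71% of the arms. With the library index as a term and technical libraries kept separate it was 1.68 ± 1.23 (edgeR, adjusted p = 0.999).

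The index was the same at both stages in 1 library of D. simulans prepupae and the larval library (GACT), and likewise in D. yakuba (CGAT). In the 4 libraries, fitted with a term for species, miR-92b-3p was higher in prepupae by 1.01 ± 0.25 (SE, log2, edgeR, adjusted p = 0.00334) and called among 15% of 40 arms. miR-92a-3p differed by 1.21 ± 0.50 (edgeR, adjusted p = 0.111) and miR-311-3p by 0.21 ± 1.03 (edgeR, adjusted p = 0.954). This fit was chosen after the values were seen. It has 1 residual degree of freedom, and both prepupal libraries are from SDY3 and both larval ones from SDY4, so pool and stage go together and cannot be told apart in it.

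**Figure D2:**
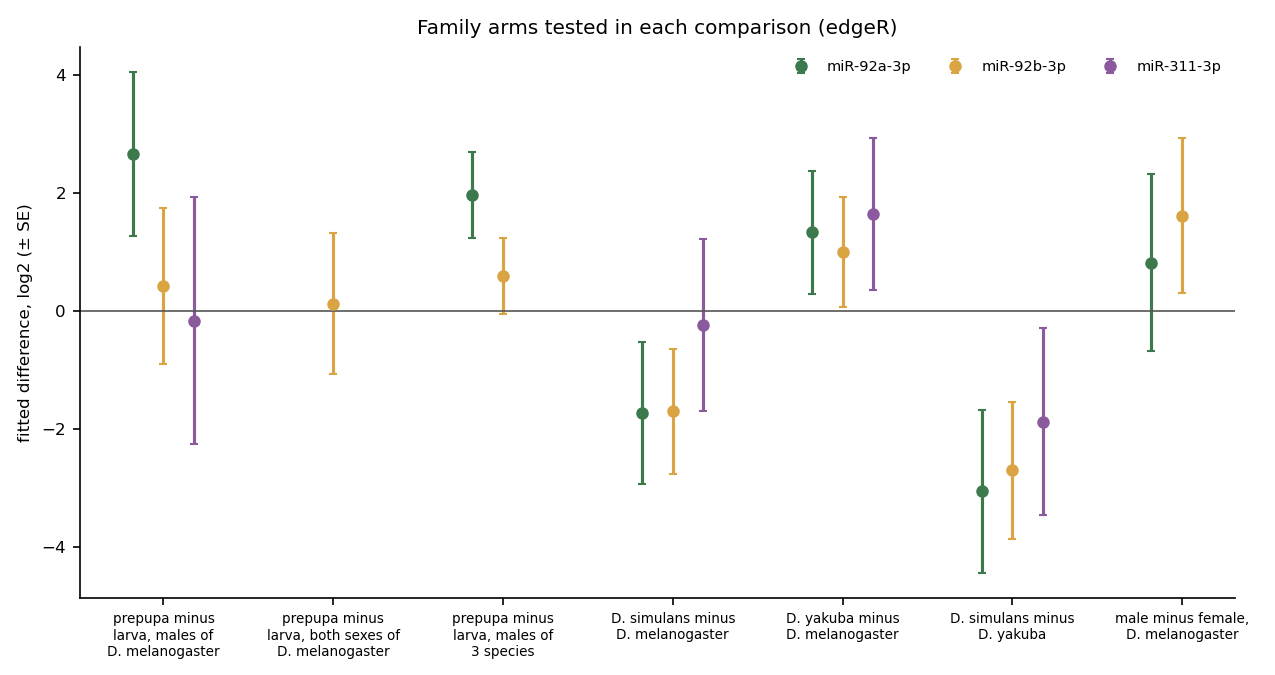
Fitted log2 differences (y axis, points, with SE bars) of the family arms that passed the filter in each of 7 comparisons (x axis). miR-92a-3p lay at 2.67 in the stage comparison of D. melanogaster males and at 1.98 across species, and no arm plotted passed an adjusted p of 0.05 in these fits.

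Reads were also taken directly, with all libraries of a group summed. In D. melanogaster the pair was 1.55 times as abundant in male prepupae as in male larvae (exact 95% interval 1.27 to 1.89). Intervals of such sums do not cover the spread between RNA samples. By sample the pair was at 0.762% and 1.12% in these prepupae, against 0.531% and 0.781% in the larvae, so the stages overlapped. miR-92a-3p was 5.30 times as abundant (3.23 to 8.97) and miR-92b-3p 1.13 times (0.897 to 1.43). The excess of the pair in these prepupae was thus carried mainly by its rarer member. In D. yakuba the pair was 1.57 times as abundant in prepupae (1.11 to 2.29), with miR-92a-3p at 1.43 (0.687 to 3.44) and miR-92b-3p at 1.59 (1.07 to 2.46). With prepupal library 2 alone the D. yakuba ratios were 2.62 for the pair and 4.26 for miR-92a-3p, while library 1 alone gave 1.24 for miR-92a-3p.

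In D. simulans the pair was 7.11 times as abundant in prepupae as in larvae (2.38 to 34.9), on 3 larval reads. With prepupal library 1 alone the ratio was 3.98 (1.30 to 19.9), and with library 2 alone 21.5 (7.07 to 107). For miR-92b-3p it was 5.27 with both libraries, 2.16 with library 1, where the interval includes 1, and 19.7 (6.43 to 97.9) with library 2. In D. melanogaster females the ratio was 0.710 (0.419 to 1.28). The cluster gave ratios of 1.02 in D. simulans (0.499 to 2.34), 0.573 in D. yakuba (0.267 to 1.36) and 1.45 in D. melanogaster males (0.902 to 2.30), all with intervals that include 1. In females it had 10 reads in prepupae and 0 in larvae, where 0 allows up to 0.064%, above the prepupal share of 0.021%.

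Inside the pair, the share of miR-92a-3p among the 3p reads is given by index. Under TGAC it was 38.2% in D. yakuba prepupal library 2, 35.4% in male prepupal sample 1 of D. melanogaster and 33 of 100 reads in sample 2. Under ACTG it was 8.70% in D. simulans prepupal library 2, 10.5% in male larval sample 1 of D. melanogaster and 8.97% in sample 2. The TGAC libraries are all of prepupae, and the ACTG libraries are of both stages.

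Under GACT it was 44.8% in D. simulans prepupal library 1 and 32.8% in D. melanogaster female prepupae, and D. simulans larvae had 0 of 3 reads. Under CGAT, found in D. yakuba alone, it was 19.1% in prepupal library 1 and 22.9% in larvae. The female larvae of D. melanogaster, under CTGA, had 25.0% of 16 reads. The ranges of observed shares under TGAC, ACTG and CGAT did not overlap. GACT ran between 0, in a library with 3 reads, and 44.8%, across all the others. The part of the index in this share was not tested.

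**Figure D3:**
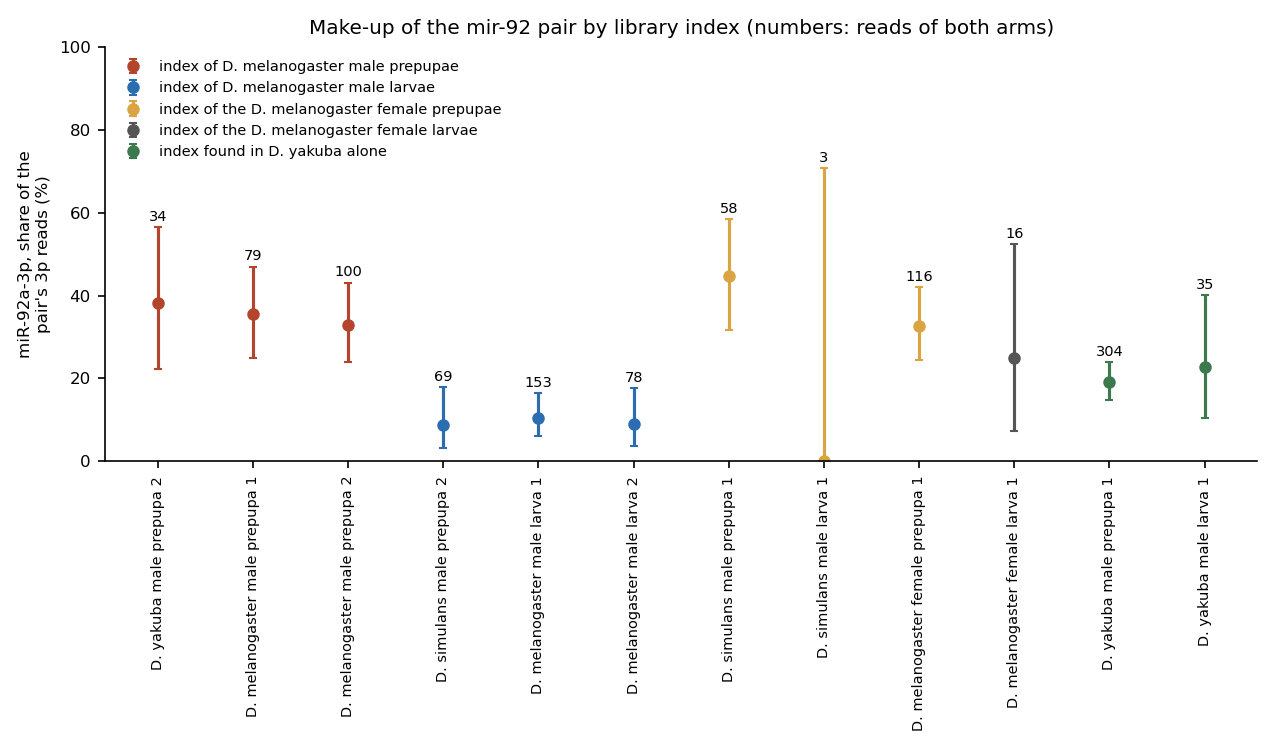
miR-92a-3p as a share of the 3p reads of the mir-92 pair (y axis, %), in the 12 libraries ordered by index (colour), with exact 95% intervals and the number of reads above each. The 3 libraries with the index of the D. melanogaster male larvae lay at 8.70 to 10.5%, one of them from D. simulans prepupae.

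In 2 cases the same RNA was read under 2 indexes. In D. simulans prepupae library 2 (ACTG) had 9.10 times the miR-92b-3p share of library 1 (GACT), with an interval of 5.85 to 14.4, and 1.07 times the miR-92a-3p share (0.359 to 2.65). The pair as a whole differed 5.40-fold (3.76 to 7.78) and the cluster 1.43-fold (0.704 to 2.72). In D. yakuba prepupae library 2 (TGAC) had 3.42 times the miR-92a-3p share of library 1 (CGAT), with an interval of 1.72 to 6.32, and 1.30 times that of miR-92b-3p (0.793 to 2.04). The pair differed 1.75-fold there (1.20 to 2.48). The index and pool differ together between these libraries and cannot be told apart.

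The young cluster was the smaller part of the family in all but 1 library. In D. simulans the cluster was at 0.179% and 0.256% of miRNA reads in the prepupal libraries, against 0.189% in larvae. In D. yakuba it was at 0.138% and 0.141% in prepupae, against 0.241% in larvae. In D. melanogaster it was at 0.226% and 0.111% in male prepupae, against 0.079% and 0.237% in male larvae, and at 0.021% in female prepupae, against 0 reads in female larvae. The stages overlapped in D. melanogaster males, and the 2 female libraries were the lowest of the 12.

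As a share of family reads the cluster made up 41.6% (31.9 to 51.8%) and 15.9% (8.72 to 25.6%) in the D. simulans prepupal libraries, against 75.0% (42.8 to 94.5%) in the larvae, which had 12 family reads. In D. yakuba it made up 8.93% and 5.41% in prepupae, against 20.5% in larvae. D. melanogaster libraries gave 22.9% and 9.01% in male prepupae, 12.9% and 23.3% in male larvae and 7.94% in female prepupae. Summed by RNA, the cluster was 30.1% of the family in D. simulans prepupae (23.5 to 37.3%), against 8.58% in D. yakuba prepupae (5.94 to 11.9%). In 10 of 12 libraries the interval lay wholly under 50%, the exceptions being library 1 and the larvae of D. simulans.

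**Figure D4:**
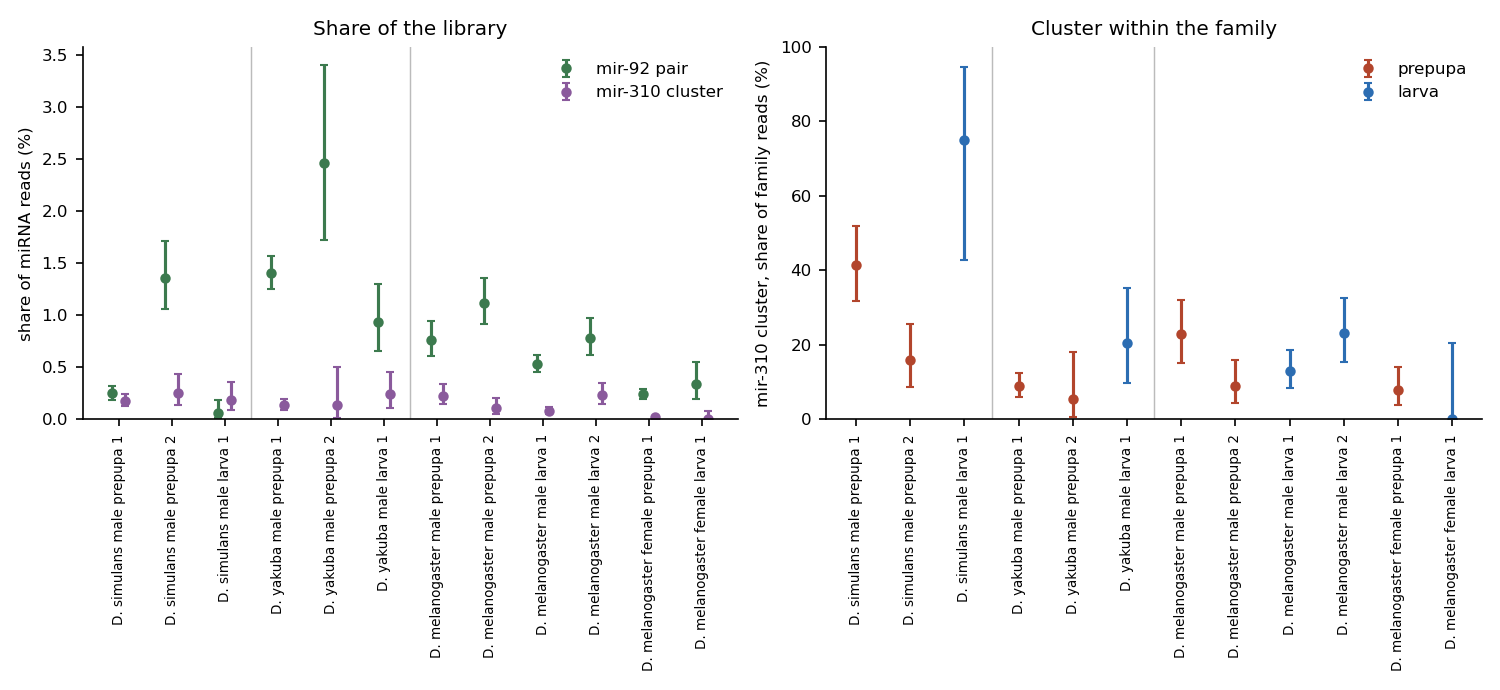
Left, share of miRNA reads (y axis, %) of the mir-92 pair (green) and the mir-310 cluster (purple) in each library; right, the cluster as a share of family reads (y axis, %), prepupae in red and larvae in blue, with exact 95% intervals. The cluster stayed at or under 0.256% of each library, while the pair ranged between 0.063% and 2.46%.

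Within the cluster, miR-311-3p and miR-312 were the arms with regular reads. miR-311-3p had 16 and 5 reads in D. simulans prepupae, against 0 in larvae, and 21 and 1 in D. yakuba prepupae, against 7 in larvae. D. melanogaster had 5 and 4 reads in male prepupae, against 5 and 12 in male larvae, and 0 in both female libraries. It was thus found in all 3 species, at both stages in D. yakuba and D. melanogaster.

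miR-312-3p had 8 and 4 reads in D. simulans prepupae, against 5 in larvae, and 9 and 1 in D. yakuba prepupae, against 2 in larvae. D. melanogaster had 6 and 3 reads in male prepupae, against 7 and 9 in male larvae, and 5 in female prepupae, against 0 in female larvae. miR-310-3p had 1 read in each D. simulans prepupal library and 3 in each male prepupal sample of D. melanogaster, and 0 elsewhere. All 8 miR-310-3p reads were therefore from male prepupae, but the larval libraries allow up to 0.010 to 0.080% each, and the highest prepupal share was 0.033%. miR-313-5p had 1 and 2 reads in the D. simulans prepupal libraries and 1 in male prepupal sample 1 of D. melanogaster.

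mir-312 was the only family hairpin with many reads on both arms. Its 5p arm took 48 of 107 reads, 44.9% (35.2 to 54.8%). In D. simulans it took 21 of 38 reads, 55.3%, and in D. melanogaster 27 of 57, 47.4%. In D. yakuba it took 0 of 12, which allows up to 25.0% by a floor of 3 counts. By contrast the 5p arm took 8 of 245 reads of mir-92a, 3.27% (1.42 to 6.33%), 2 of 810 of mir-92b, 0.247% (0.030 to 0.889%), and 0 of 76 of mir-311. The arms of mir-310 and mir-313, with 9 and 4 reads, are too shallow to compare.

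miR-312-5p itself had 16 and 1 reads in D. simulans prepupae, against 4 in larvae. D. melanogaster had 9 and 0 reads in male prepupae, against 10 and 3 in male larvae, and 5 in female prepupae, against 0 in female larvae. By share, the male prepupal samples of D. melanogaster were at 0.085% and 0, either side of the male larval values of 0.034% and 0.030%.

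The choice of hairpin mattered for the cluster and not for the pair. On their own hairpins D. simulans libraries had 17 miR-312-3p reads, and on the D. melanogaster hairpins 0. D. yakuba libraries had 12 on their own hairpins and 2 on those of D. melanogaster. miR-313-5p had 3 D. simulans reads on the own hairpin and 0 on that of D. melanogaster. Every other arm of the family with an own-species hairpin listed, both arms of the pair included, had equal counts on both. Of the D. simulans miR-312-3p reads, 13 matched the D. simulans hairpin alone and 4 matched several. Of the D. yakuba reads, 6 matched the D. yakuba hairpin alone and 6 several. All 30 D. melanogaster reads matched that species' hairpin alone. No read matched another species' hairpin alone, which checks the species labels of the libraries that held such reads. D. melanogaster female larvae held 0, D. yakuba prepupal library 2 held 1 and D. yakuba larvae held 2.

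Between species, D. simulans males minus D. melanogaster males gave -1.72 ± 1.21 for miR-92a-3p (log2, SE, edgeR, adjusted p = 0.361), -1.70 ± 1.06 for miR-92b-3p (adjusted p = 0.312) and -0.24 ± 1.45 for miR-311-3p (adjusted p = 0.924). The samples were 2 RNA of D. simulans and 4 of D. melanogaster. All SDY1 libraries were of D. melanogaster and all SDY4 libraries of D. simulans or D. yakuba, so species and pool are partly confounded. Of 3 family arms tested 0 passed, against 11.1% of 45 arms, and 0 had an unadjusted p under 0.05, against 26.7%. DESeq2 also called 0 of the 3. The median over the 45 arms was -0.41. With technical library 1 alone, miR-92b-3p was lower in D. simulans at -2.88 ± 0.77 (edgeR, adjusted p = 0.0274; 15.6% of arms called). With library 2 alone the difference was -0.24 (edgeR, adjusted p = 0.942).

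D. yakuba minus D. melanogaster gave 1.34 ± 1.03 for miR-92a-3p (edgeR, adjusted p = 0.511), 1.00 ± 0.93 for miR-92b-3p (adjusted p = 0.581) and 1.64 ± 1.29 for miR-311-3p (adjusted p = 0.511). Here too 0 of 3 passed, against 2.22% of 45 arms, and 0 had an unadjusted p under 0.05, against 20%. DESeq2 called 0 of the 3 as well. Both species comparisons use the same D. melanogaster samples, and in both species and pool are partly confounded.

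D. simulans minus D. yakuba gave the largest of these differences, -3.06 ± 1.38 for miR-92a-3p (edgeR, adjusted p = 0.210), -2.70 ± 1.16 for miR-92b-3p (adjusted p = 0.210) and -1.88 ± 1.58 for miR-311-3p (adjusted p = 0.535). With 2 RNA samples a species, 0 of 3 passed, against 6.67% of 45 arms, and 2 of 3, both of the pair, had an unadjusted p under 0.05, against 17.8%. For miR-92b-3p the call came with technical library 1 alone (-3.52 ± 0.85, edgeR, adjusted p = 0.0197; 8.89% of arms called), with DESeq2 (-2.57 ± 0.86, adjusted p = 0.0306) and without male prepupal sample 1 of D. melanogaster (-3.05 ± 0.73, edgeR, adjusted p = 0.0320). With technical library 2 alone it was -1.09 (edgeR, adjusted p = 0.783).

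The sexes could be compared in D. melanogaster. Male minus female gave 1.62 ± 1.32 for miR-92b-3p (log2, SE, 4 male and 2 female libraries, edgeR, adjusted p = 0.639) and 0.82 ± 1.51 for miR-92a-3p (adjusted p = 0.870). Of the 2 arms tested 0 passed, against 1.72% of 58 arms, and 0 had an unadjusted p under 0.05, against 8.62%. DESeq2 called 0 of the 2. With both sexes in a fit of stage, only miR-92b-3p passed the filter, at 0.13 ± 1.19 (edgeR, adjusted p = 0.989), against 4.17% of 48 arms called and 10.4% at an unadjusted p under 0.05. DESeq2 did not call it either.

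The 3′ ends of the reads also differed between the 2 pair members in most libraries. The first base, which sets the seed, was fixed: 1174 of 1188 family 3p reads started at the usual base, 98.8% (98.0 to 99.4%). The counts were 234 of 237 for miR-92a-3p, 798 of 808 for miR-92b-3p, 76 of 76 for miR-311-3p and 58 of 59 for miR-312-3p. The 3′ end varied, and the 4 lines give the forms of 20 and 22 bases of both arms, with the bases from position 19 on in capitals.

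miR-92a-3p form of 20: cauugcacuugucccggcCU

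miR-92a-3p form of 22: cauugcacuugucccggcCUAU

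miR-92b-3p form of 20: aauugcacuagucccggcCU

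miR-92b-3p form of 22: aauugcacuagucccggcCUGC

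Reads of 20 bases made up 0 to 12.5% of miR-92a-3p per library. Of miR-92b-3p they made up 75.0% and 39.7% in the D. simulans prepupal libraries and 2 of 3 reads in the larvae. In D. yakuba they made up 90.7% (223 of 246) and 76.2% in prepupae and 85.2% in larvae. In D. melanogaster they made up 15.7% and 70.1% in male prepupae, 6.57% and 29.6% in male larvae, 34.6% in female prepupae and 8.33% in female larvae. The order of the arms was reversed in male larval sample 1, at 12.5% of miR-92a-3p (2 of 16 reads) against 6.57% of miR-92b-3p.

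The length of miR-92b-3p differed between pools, with ranges that overlapped. In SDY1, all D. melanogaster, the share of 20-base reads was 6.57 to 34.6% (45 of 278 reads). It was 29.6 to 90.7% in SDY3 (315 of 416) and 39.7 to 85.2% in SDY4 (66 of 114). Within D. melanogaster males both stages were higher in SDY3 than in SDY1. Within the pools D. melanogaster prepupae were higher than larvae, at 15.7% against 6.57% and 70.1% against 29.6% in males. Females had 34.6% against 8.33%. Within SDY4 the prepupae were lower, at 39.7% against 2 of 3 reads in D. simulans and 76.2% against 85.2% in D. yakuba. The parts of pool, stage and index in these differences, that between species included, were not tested. miR-311-3p had a share of 20 bases of 15 in 16 reads in D. simulans prepupal library 1, 20 of 21 in D. yakuba prepupal library 1, 6 of 7 in D. yakuba larvae and 5 of 12 in male larval sample 2 of D. melanogaster.

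**Figure D5:**
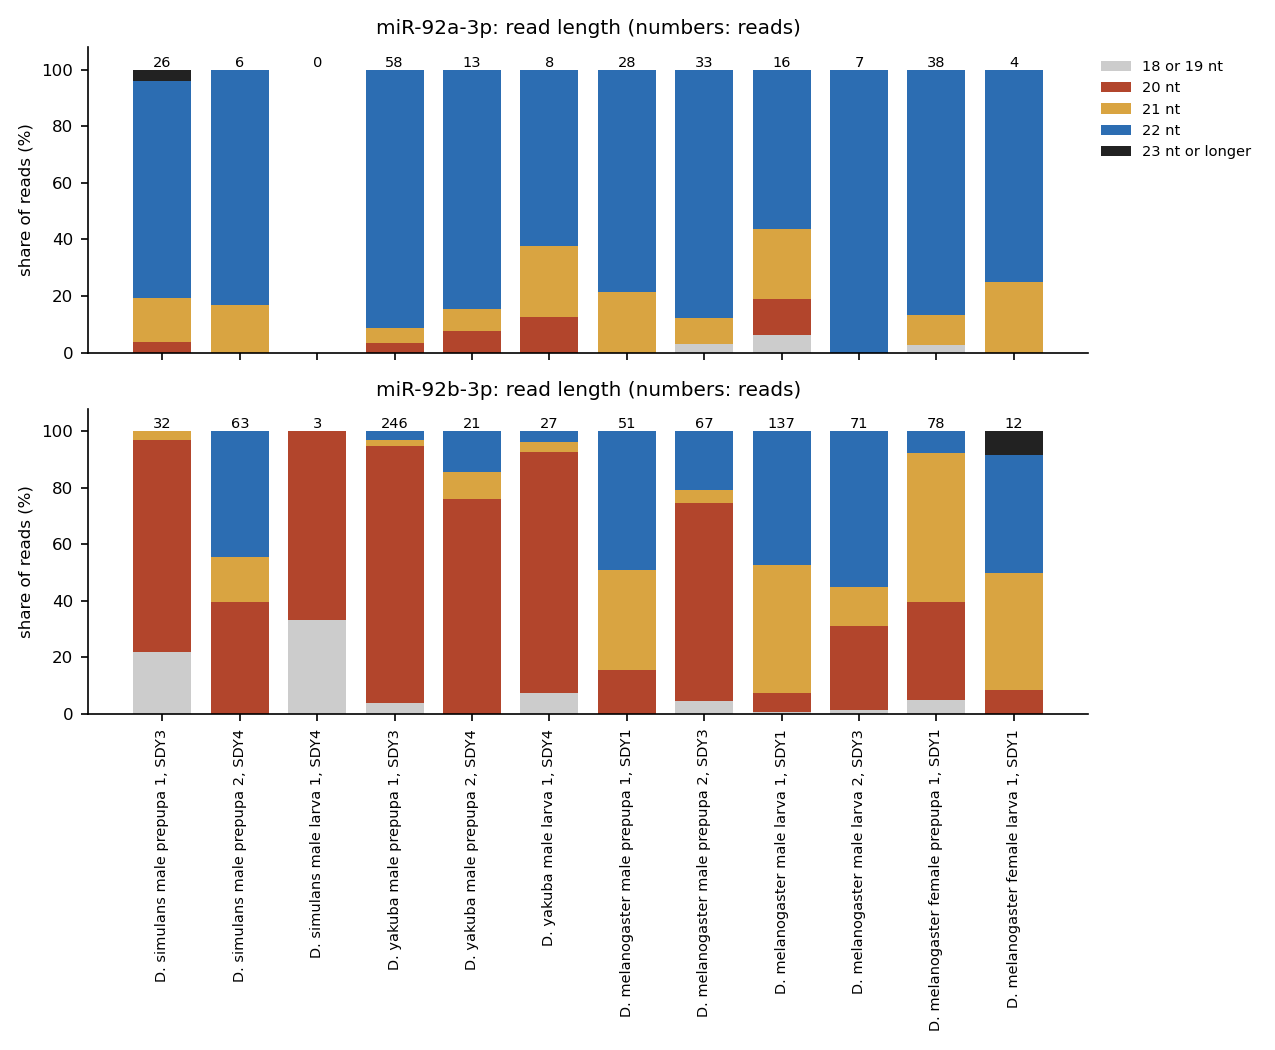
Read length of miR-92a-3p (top) and miR-92b-3p (bottom) as a share of reads (y axis, %) in the 12 libraries with their pool (x axis), with the number of reads above each bar. Reads of 20 bases (red) were 12.5% or less of miR-92a-3p and between 6.57% and 90.7% of miR-92b-3p.

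Untemplated additions were rare, at 3 reads of mir-92a, 4 of mir-312 and 2 of mir-311, with none listed for the other members.

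Among the 34 other arms that passed the filter in the stage comparison across species, miR-92b-3p had the profile closest to miR-92a-3p over the 10 RNA samples. The measure was the root mean square difference of centred log2 values, which was 0.97 for miR-92b-3p. It was 1.34 for miR-2b-3p and 1.45 for miR-276a-5p, which shares its reads with miR-276b-5p. The median over the 34 arms was 2.10, and miR-92a-3p itself had an SD of 1.80. The profiles share the depth and index of each library. In D. simulans larvae miR-92a-3p lay at -4.36 on 0 reads, so the constant added to RPM set that value. The arms named were also under their own means there. miR-92b-3p was at -2.55 on 3 reads, miR-2b-3p at -2.16 and miR-276a-5p at -1.55. The differences given rest in part on that sample, and the order of arms without it was not tested.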

How the data were processed

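Small RNA of whole animals was size-selected, ligated to indexed adaptors and sequenced, per the labels' protocols. The authors aligned reads to miRBase release 15 hairpins (per the file headers) with Bowtie 0.12.5 (per the submitters' processing notes). The deposited summary table holds expected counts, reads divided among matching loci. The deposited alignment texts hold whole-number counts per read sequence and library, other than a plain table. Neither is normalised, and the authors' genome build is not given in the sources used here. Not used were 8 columns of the summary table that hold 4 libraries of other studies.

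Reads were summed again from the alignment texts per mature arm on own-species hairpins. This gave 338, 260 and 140 arms for D. melanogaster, D. simulans and D. yakuba, of which 126 were shared and used between species. mir-313 of D. yakuba, with no own-species hairpin listed, was counted on the D. melanogaster hairpin. All 138 member values compared were exactly equal to the summary table, and over all arms 3122 of 3126 values lay within 1 read of it. Reads shared by several miRNAs were divided and sums rounded to whole counts. Technical libraries of 1 RNA were summed. Scaling was by TMM and low arms were removed by filterByExpr (minimum count 10). Counts were tested with edgeR 4.0.16 quasi-likelihood tests in R 4.3.3, with Benjamini-Hochberg adjustment over all arms tested and a threshold of 0.05. DESeq2 1.42.0, RLE scaling, no filter, the summary table, D. melanogaster hairpins, single technical libraries, blocks and left-out libraries were alternatives. Models were tested on simulated data. A p-value here reflects only how these samples spread. Shares carry exact Clopper-Pearson 95% intervals, and a count of 0 a floor of 3 counts.

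Replicate numbers of D. melanogaster males go with the pool in the titles, and the deviations of same-numbered samples correlated at r = 0.738 over 50 arms. The members, lists and tests were chosen with earlier results of these data known. Arms were named by likeness as the 3 closest in profile to miR-92a-3p, of which the first is a member. The other non-members named belong to the marker lists.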

Additional observations from a re-analysis of the deposited data

Results flagged for a closer look

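The stage ratio of the mir-92 pair lay above 1 in some sets of animals and under 1 in D. melanogaster females. Outside D. melanogaster males each set holds 1 RNA a stage, so a side is given in advance and a difference in direction is not shown. The prepupal over larval ratio of the pair was 7.11 in D. simulans males and 1.57 in D. yakuba males, with all prepupal libraries higher, and 0.710 in D. melanogaster females, with the prepupal library lower. For miR-92b-3p the ratios were 5.27, 1.59 and 0.637 in the same sets. The D. simulans ratios were 3.98 for the pair and 2.16 for miR-92b-3p with prepupal library 1 alone, and 21.5 and 19.7 with library 2 alone. For miR-92a-3p the ratios were 1.43 in D. yakuba males and 5.30 in D. melanogaster males, against 0.930 in D. melanogaster females. In D. simulans males the larvae had 0 miR-92a-3p reads, and with larvae set at a floor of 3 counts the ratio was 1.78. The lower limit of its exact interval, taken on the 0 reads, was 1.36 with both prepupal libraries. It was 1.33 with library 1 alone and 1.10 with library 2 alone. The intervals of the female ratios all include 1, as does that of miR-92a-3p in D. yakuba (0.687 to 3.44), and the differences between species were not tested.

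In D. melanogaster the difference between the sexes was tested, in a fit chosen after the values were seen. The male change minus the female change was 2.08 ± 2.39 for miR-92a-3p (log2, SE, edgeR, adjusted p = 0.661) and 0.38 ± 2.34 for miR-92b-3p (edgeR, adjusted p = 0.983), in a fit that called 1.43% of 70 arms.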

How the results depend on the processing

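For miR-92a-3p by stage, all 12 alternatives in D. melanogaster males and all 20 across species kept it higher in prepupae, at 2.17 to 3.02 (adjusted p 0.0186 to 0.817) and 1.21 to 2.63 (adjusted p 0.000725 to 0.999). The difference in the permutation test was 1.66 to 2.20 in 8 settings with a library left out. The D. simulans larvae, with 0 miR-92a-3p reads, were not among the libraries left out, so the range does not cover their weight. The p of that test stayed at 0.0833, but the labels allow few arrangements, so this says little of stability. Between species miR-92b-3p ran from -2.88 to -0.24 for D. simulans minus D. melanogaster and from -3.52 to -1.09 for D. simulans minus D. yakuba. Of 249 fitted differences of members under alternatives 233 kept their direction and side of the threshold, 7 passed it and 9 reversed. Of 77 values with no test 75 stayed within counting error. On D. melanogaster hairpins the cluster share was 0.137% in D. simulans prepupae and 0.0825% in D. simulans larvae, where the miR-312-3p reads and, in prepupae, 3 miR-313-5p reads were not found.

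All reversals were of differences with an adjusted p of 0.511 or more. miR-92b-3p by stage in D. melanogaster males came to -0.073 without the female larvae and -0.064 without male prepupal sample 2, and to 0.80 at most with a library left out. Over both sexes it came to -0.47 without male prepupal sample 2 and to 0.55 at most. miR-92a-3p came to -0.19 between sexes without the female prepupae (1.60 at most), and to -0.31 for D. yakuba minus D. melanogaster without the D. yakuba larvae (2.09 at most). miR-311-3p for D. simulans minus D. melanogaster came to 0.031 on the summary table, 0.15 without male prepupal sample 2 of D. melanogaster, 1.01 without D. simulans larvae and 0.20 without prepupal library 2 of D. simulans, with -0.86 as the lowest. The cause was not tested.

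Counts of called arms over all miRNAs were unstable. For stage in D. melanogaster males the 6 calls became 3 with RLE scaling and 0 to 7 when a library was left out. For stage over both sexes the 2 calls became 1 with RLE, 5 with DESeq2, 0 without a filter and 0 to 9 with a library left out. For sex the 1 call became 0 without a filter and 0 to 2 with a library left out. For stage across species the 1 call became 2 with DESeq2, 3 without a filter, 0 with the index as a term, 6 within 1 index and 0 to 4 with a library left out. For D. simulans minus D. melanogaster the 5 calls became 3 on the summary table, 1 on D. melanogaster hairpins, 2 with technical library 2 alone and 2 to 7 with a library left out. For D. yakuba minus D. melanogaster the 1 call became 0 with RLE, the summary table, D. melanogaster hairpins or either technical library, 4 with DESeq2, 2 without a filter and 0 to 2 with a library left out. For D. simulans minus D. yakuba the 3 calls became 0 on D. melanogaster hairpins and 1 to 4 with a library left out. Where an alternative called 0 in edgeR, unadjusted p under 0.05 held for 1 to 13 arms.

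The 4 male libraries of D. melanogaster gave 20 calls when pool was a replicate block, against 10 without it. A block of label numbers gave 1 call for stage over both sexes and 0 across species. The block changed the call of no family arm but miR-92a-3p in D. melanogaster males. Depth limits the cluster most, with 196 reads in 12 libraries.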
